A study of Homo sapiens with 14 samples.

Results

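The aminoacyl-tRNA synthetases were taken as the genes whose symbol is a single-letter amino acid code followed by ARS, alone or with 1 or 2 at its end, together with EPRS1, FARSA and FARSB. Of the 59471 gene names in the count files, 37 met this description. The rule reads symbols only, but the set and the gene lists used below were chosen with earlier results of these data known. Of these, 18 encode cytosolic enzymes, 17 encode mitochondrial enzymes, whose symbols end in 2, and GARS1 and KARS1 each supply both compartments and were counted with the cytosolic enzymes.

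The measurements were 14 RNA-seq libraries of polyadenylated RNA from SCC23, an established human head and neck squamous cell carcinoma (HNSCC) line, and the study asked how loss of the histone methyltransferase KMT2D alters these cells with glucose and without it. KMT2D-WT cells had received a guide RNA against LacZ, which has no target in human cells, and KMT2D-KO cells a guide against KMT2D. There were 3 KMT2D-WT and 4 KMT2D-KO libraries with glucose, and 3 KMT2D-WT and 4 KMT2D-KO libraries from cells kept without glucose for 6 h. Every group was spread over 2 experiments. The KMT2D-KO libraries came from lines named KO1 and KO2, sorted for the green fluorescent protein of the Cas9 plasmid. The paper reports KMT2D mutations in these cells by Sanger sequencing, and the knockout and a marked fall in H3K4me1 by western blot. The study's methods describe no single-cell cloning, so each line may be a mixture of edited and unedited cells. In the values below, the KMT2D-WT libraries are given in the order experiment 1, then both of experiment 2, and the KMT2D-KO libraries in the order KO1 and KO2 of experiment 1, then KO1 and KO2 of experiment 2.

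Each synthetase joins 1 amino acid to its transfer RNA, using ATP, and so supplies the ribosome with charged tRNA. Cytosolic and mitochondrial protein synthesis draw on largely separate sets of enzymes, but all of the enzymes are nuclear genes. Uncharged tRNA and other stresses activate the integrated stress response, in which translation of the transcription factor ATF4 rises, and ATF4 is known to raise transcription of many cytosolic synthetases and of amino acid transporters and biosynthetic enzymes. Several of the cytosolic enzymes sit together with scaffold proteins in the multisynthetase complex. Mitochondrial synthetases are not among the classical ATF4 targets.

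The sequence that ATF4 binds with its C/EBP partners, written here as TGATGNAA and searched on both strands, was looked up in the window from 250 bases before to 50 after each gene start in a RefSeq table (GRCh38.p14). Of the 37 synthetases 30 had a window, and 8 of these held the letters (26.7%), against 1270 of all 35116 windows (3.62%). The 8 stretches of 30 bases are shown because the 2 classes of enzyme differ in them, with the matching letters in capitals.
TARS1: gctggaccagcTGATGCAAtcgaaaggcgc
GARS1: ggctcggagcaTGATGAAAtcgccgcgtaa
IARS1: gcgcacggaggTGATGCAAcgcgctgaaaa
CARS1: ttcctagaatcTGATGCAAccgccgccccg
MARS1: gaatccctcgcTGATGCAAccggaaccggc
AARS1: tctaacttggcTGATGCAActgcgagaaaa
NARS1: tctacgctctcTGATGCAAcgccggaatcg
YARS2: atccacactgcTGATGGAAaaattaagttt
These lie, in the same order, at chr5:33440956-33440985 on the minus strand, chr7:30594834-30594863 on the minus strand, chr9:92293692-92293721 on the plus strand, chr11:3057407-3057436 on the plus strand, chr12:57488053-57488082 on the minus strand, chr16:70289675-70289704 on the plus strand, chr18:57621804-57621833 on the minus strand and chr12:32756076-32756105 on the minus strand. All cytosolic stretches but that of GARS1, which has TGATGAAA, hold the letters TGATGCAA. Positions are those of the base of the match that comes first along the gene, counted from 0 at the start base. In TARS1, CARS1, MARS1, IARS1, NARS1 and GARS1 it lay between -33 and 14, and in AARS1 and YARS2 at -187 and -197. By list, 7 of 10 cytosolic synthetases that general knowledge names as ATF4 targets held them, 0 of 6 other cytosolic or dual-compartment synthetases and 1 of 14 mitochondrial synthetases. A match is a description of the letters and not evidence of binding.

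Total counts ran from 15669154 to 62968057 a library, and the synthetases took 0.46% to 0.675% of them. Of the squamous epithelial markers, SFN ran from 436 to 1127 CPM (counts scaled to the TMM-adjusted library total), TP63 from 71.0 to 244, KRT14 from 26.5 to 253, KRT17 from 24.0 to 1303 and KRT5 from 1.505 to 225 CPM (8.79 and 1.505 in the KO1 libraries with glucose), while KRT6A did not exceed 1.13 CPM. These markers moved with the groups: with glucose KRT14 was lower in KMT2D-KO cells (log2 difference -1.74), and without it KRT5, KRT17 and TP63 were higher (2.86, 2.16 and 0.70). The leukocyte genes PTPRC, CD3E and CD68 stayed at or below 0.29 CPM and the endothelial genes PECAM1 and VWF at or below 0.307 CPM. CDH5, also endothelial, reached 4.11 CPM and was higher in KMT2D-KO cells without glucose (2.24). Of the fibroblast genes, COL1A1 was at 3.03 to 15.97 CPM and higher in KMT2D-KO cells in both conditions (1.26 and 1.33), COL1A2 at 0 to 5.33 CPM and PDGFRB at most 0.775 CPM. The part of these markers in the synthetase results was not tested. KMT2D itself lay at 279, 266 and 271 CPM in KMT2D-WT and 182, 323, 184 and 373 CPM in KMT2D-KO libraries with glucose, and at 239, 233 and 230.5 CPM against 19.9, 190.2, 152 and 145 CPM without it, so 6 of the 8 KMT2D-KO libraries lay below every KMT2D-WT library of their condition and the KO2 libraries with glucose lay above. The group difference was not called in either condition (log2 -0.02 and -0.90). The glucose-deprived library labelled KO1 in experiment 2 lay, over 20 genes at least 8-fold apart between the lines, 3.96 log2 units from KO1 and 0.39 from KO2, and its line label is therefore in doubt. The glucose-deprived libraries of experiment 2 also formed very close pairs within each genotype, with a chi-square per gene of 1.71 in KMT2D-WT and 1.78 in KMT2D-KO. The other KO1 and KO2 pairs of 1 group and experiment were at 25.9 to 83.0, and the only other KMT2D-WT pair at 28.7. The pairs at 28.7 and 83.0 are of deeper libraries in which both mates were counted, so their values are not on the same footing. Nothing in the labels says that libraries came from separate cultures, so p-values measure the spread between these libraries only.

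In RPKM (CPM per kilobase of annotated exon), TARS1 (threonine) was the highest synthetase with glucose in KMT2D-WT cells, at 73.2 RPKM ± 8.74 (SD, n = 3). SARS1 (serine), FARSA (a phenylalanine subunit) and KARS1 (lysine) followed at 67.7, 62.2 and 59.95 RPKM. Over the whole order of 37 genes in that group, 32 of the 36 neighbouring pairs had overlapping library ranges, so the order was coarse. The order also depends on the annotation, because the length takes in every annotated exon of a gene. In that group GARS1 (17366 bases) and KARS1 (4051 bases) were at 235 and 243 CPM, but at 13.5 and 59.95 RPKM. IARS2 (isoleucine) was the highest mitochondrial enzyme, 6th of 37 at 47.2 RPKM with glucose in KMT2D-WT cells, and stood 13th in glucose-deprived KMT2D-KO cells at 41.7 RPKM. VARS2 (valine) was the lowest in all 4 groups, at 0.0274 to 0.109 RPKM, on 2 to 53 counts a library, and 63.0% of its exonic bases are shared with an overlapping gene. SARS2 (serine), next lowest except in glucose-deprived KMT2D-KO cells, shares 48.2% of its exonic bases with another gene.

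**Figure D1:**
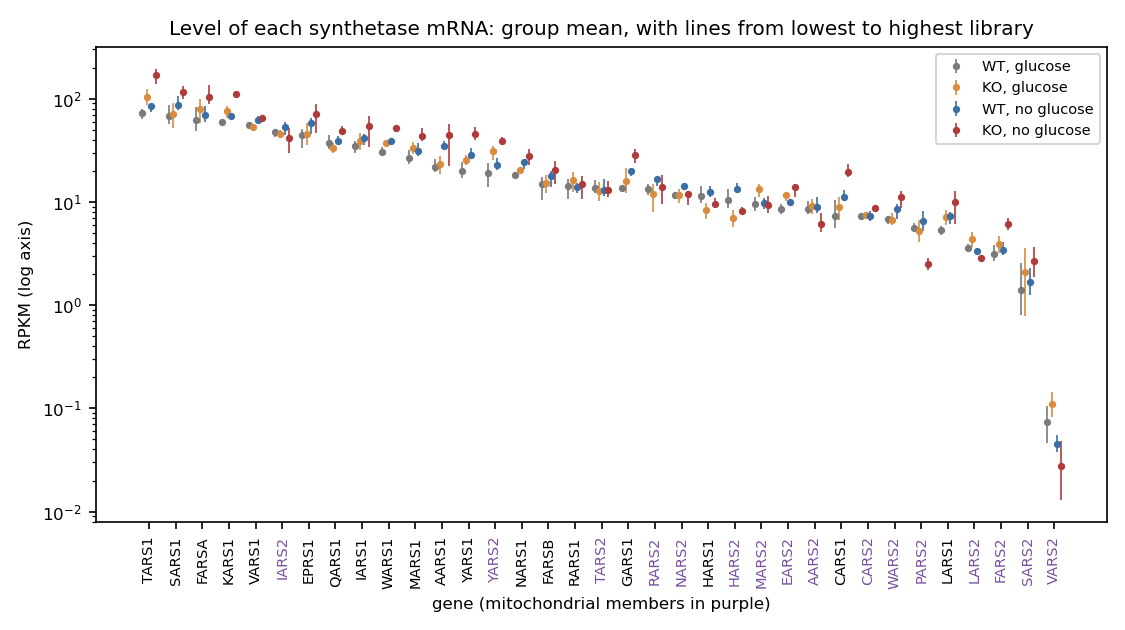
Level of 35 synthetases in RPKM on a log axis, by group, with each point the mean of a group's libraries and each line running from its lowest to its highest library. TARS1, SARS1, FARSA and KARS1 lead, IARS2 is the highest mitochondrial enzyme, and VARS2 lies far under the rest at 0.0274 to 0.109 RPKM.

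The mitochondrial enzymes supplied 22.3%, 23.3% and 22.2% of the summed synthetase RPKM in KMT2D-WT libraries with glucose. In KMT2D-KO libraries with glucose the shares were 21.4%, 22.0%, 20.2% and 22.0%. Without glucose they were 21.0%, 21.3% and 21.3% in KMT2D-WT and 16.5%, 15.8%, 15.7% and 15.8% in KMT2D-KO libraries. The last group therefore stood below every other library, while the other groups lay within 20.2% to 23.3%. Underneath this, the summed CPM of cytosolic and dual-compartment enzymes averaged 3661 and 4119 in KMT2D-WT and KMT2D-KO cells with glucose and 4595 and 6242 without, whereas the mitochondrial sum stayed between 841 and 919 in all 4 groups. The size of a share in RPKM also depends on the annotated exonic lengths, which are the same for every library. These are shares of each library's RNA, and in bulk samples fewer expressing cells and less RNA per cell cannot be told apart.

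**Figure D2:**
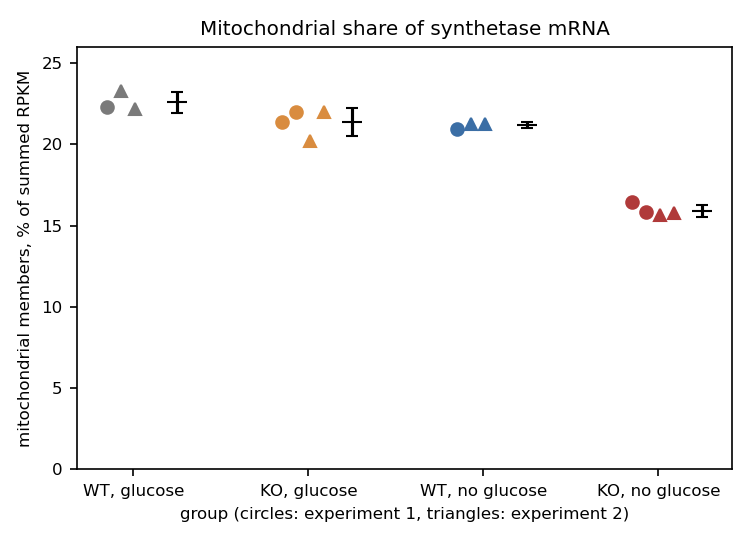
Percent of the summed synthetase RPKM that came from mitochondrial enzymes, 1 point a library, by genotype and glucose (circles experiment 1, triangles experiment 2), with a crossbar at the group mean with its SD. The 4 glucose-deprived KMT2D-KO libraries lie at 15.7% to 16.5% and the other 10 at 20.2% to 23.3%.

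**Figure D3:**
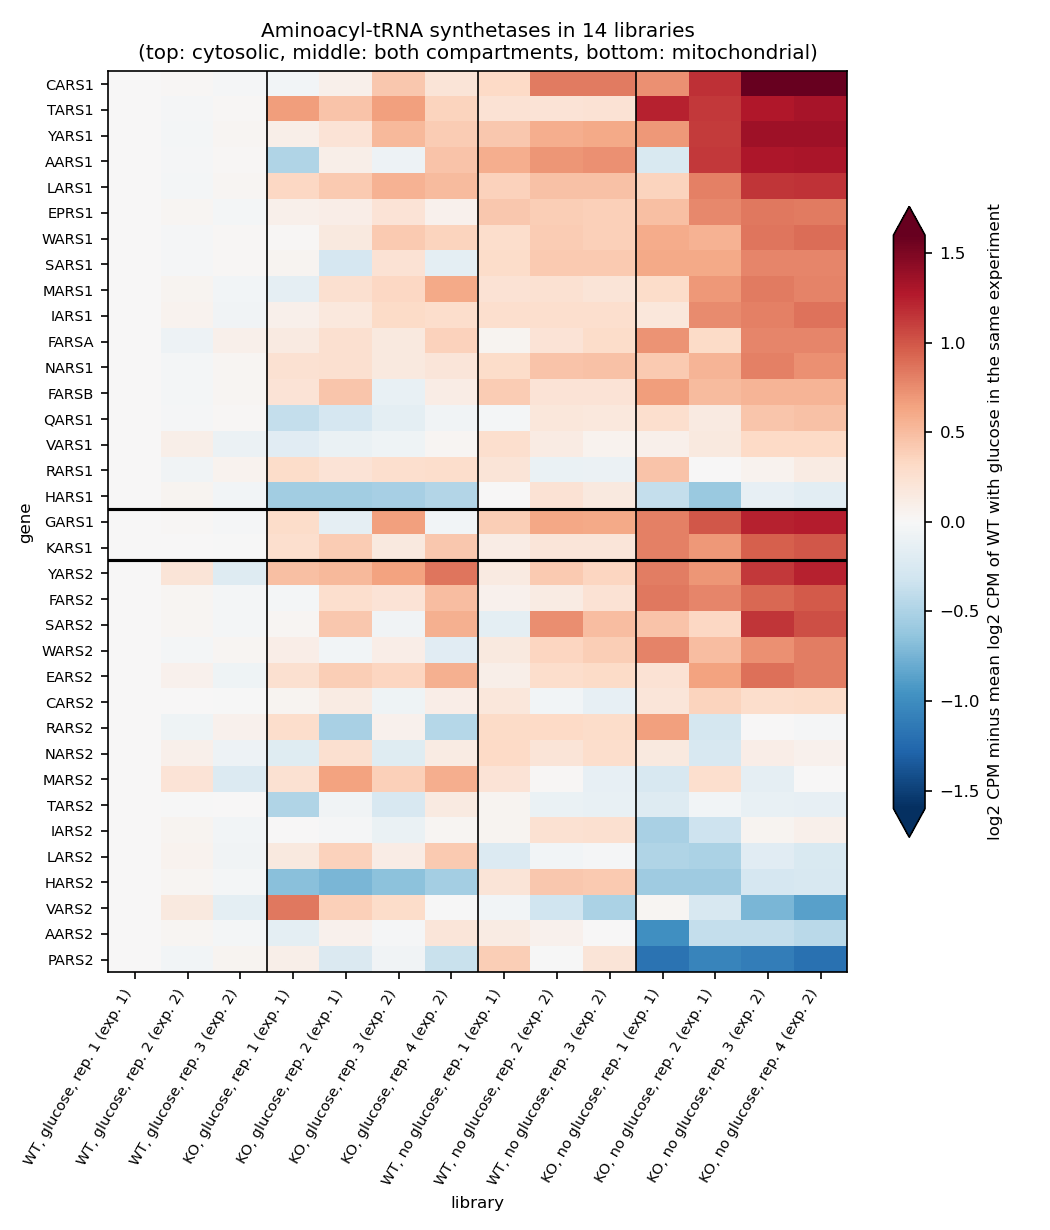
Heatmap of the log2 CPM of 35 synthetases in each library minus the mean of the KMT2D-WT libraries with glucose of the same experiment, with cytosolic enzymes at the top, dual-compartment ones next and mitochondrial ones at the bottom, red for higher and blue for lower. The cytosolic block is reddest in the 4 glucose-deprived KMT2D-KO libraries, where PARS2 and HARS2 are blue.

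With glucose present, the question was whether loss of KMT2D alone shifts the enzymes. In this condition 9 of the 37 synthetases were higher in KMT2D-KO than in KMT2D-WT cells and 2 were lower. The adjusted p is that of edgeR's quasi-likelihood test here and throughout, Benjamini-Hochberg adjusted over all genes tested, with experiment as a covariate and a threshold of 0.05, and a gene past it is called. Over all 20423 genes tested, 13.0% were called higher and 11.7% lower. Of the 20 cytosolic and dual-compartment enzymes, TARS1, LARS1, YARS1, KARS1, WARS1 and RARS1 rose and HARS1 fell, with a median log2 fold change of 0.22 for the class against 0.02 for all genes. Among the 17 mitochondrial enzymes, YARS2, MARS2 and EARS2 rose and HARS2 fell, and the median was 0.04.

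TARS1, the threonine enzyme and the highest of the set in mean RPKM, was at 269, 329 and 337 CPM in KMT2D-WT and 426, 369, 527 and 426 CPM in KMT2D-KO libraries. All KMT2D-KO libraries were above all KMT2D-WT libraries, a log2 difference of 0.54 (SE 0.10, edgeR adjusted p = 0.0044). Its mitochondrial counterpart TARS2 was not called, with a log2 difference of -0.12. LARS1, which charges leucine and takes part in leucine sensing, measured 98.6, 115 and 120.3 CPM against 125, 132, 173 and 167 CPM, without overlap (log2 difference 0.48, SE 0.08, edgeR adjusted p = 0.0026). LARS2, for mitochondrial leucine, was at 48.5, 43.6 and 40.2 CPM against 54.3, 62.7, 45.6 and 56.0 CPM, where the groups overlapped and the difference of 0.28 was not called (edgeR adjusted p = 0.0846).

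The histidine enzymes moved the other way, and both did. HARS1 lay at 201, 146 and 137 CPM in KMT2D-WT and 137, 137, 97.5 and 102 CPM in KMT2D-KO libraries, so each KMT2D-KO library was below every KMT2D-WT library of its experiment (log2 difference -0.52, SE 0.07, edgeR adjusted p = 0.00114). HARS2 was at 49.2, 34.4 and 32.7 CPM against 30.7, 29.4, 21.2 and 22.9 CPM, with every KMT2D-KO library lower (log2 difference -0.64, SE 0.09, edgeR adjusted p = 0.000986). The genes lie head to head on chromosome 5, HARS1 at 140673035 to 140691537 on the minus strand and HARS2 at 140691430 to 140699305 on the plus strand. Their RefSeq start sites are 84 bases apart, and they share some exonic bases in the annotation (8.46% of HARS1 and 6.99% of HARS2 overlap other genes). In both, the ratio was of similar size in each experiment: -0.55 and -0.50 for HARS1 and -0.70 and -0.60 for HARS2 (log2).

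YARS2, for mitochondrial tyrosine, measured 51.6, 40.1 and 30.0 CPM in KMT2D-WT and 72.5, 74.0, 54.7 and 63.3 CPM in KMT2D-KO libraries, all higher (log2 difference 0.66, SE 0.12, edgeR adjusted p = 0.0045). Its cytosolic counterpart YARS1 also rose, by 0.35 (SE 0.09, edgeR adjusted p = 0.0228), and of the 14 amino acids served by a pair of separate genes, tyrosine alone had both enzymes called higher. MARS2, for mitochondrial methionine, was at 28.5, 33.7 and 24.5 CPM against 33.8, 45.0, 37.7 and 43.4 CPM, with the highest KMT2D-WT and the lowest KMT2D-KO library almost level. Its difference of 0.48 (SE 0.15, edgeR adjusted p = 0.0444) lost its call without either KO2 library or without KMT2D-WT replicate 1 or 3, at 0.37 to 0.47. That of TARS1 lost its call without KMT2D-WT replicate 1 (0.51, edgeR adjusted p = 0.0609), whereas HARS1, HARS2, LARS1 and YARS2 were called with any 1 library left out. With 1 library left out, EARS2 was called in 5 of 7 fits, YARS1 in 3, KARS1 in 2, WARS1 in 1 and RARS1 in 0 by edgeR (log2 difference of RARS1 0.25 to 0.31, edgeR adjusted p = 0.0592 to 0.1801). Without the experiment term 0 of 37 synthetases were called by edgeR (7 at an unadjusted p under 0.05) and 3 by DESeq2. Of all 20423 genes, 495 were then called higher and 476 lower by edgeR, and 1386 and 1191 by DESeq2.

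**Figure D4:**
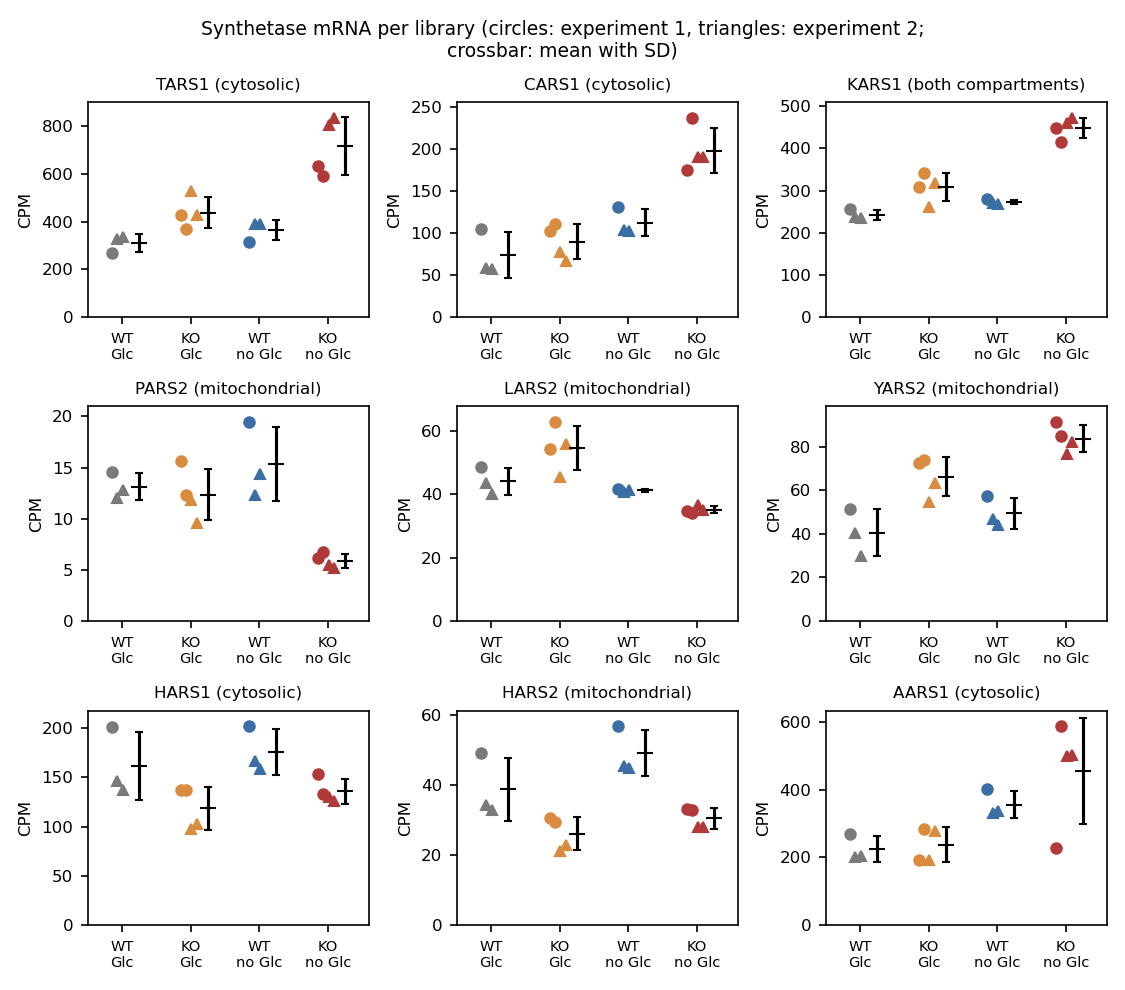
CPM of 9 synthetases in each library, 1 panel a gene, with circles for experiment 1, triangles for experiment 2 and a crossbar at the group mean with its SD. TARS1, CARS1 and KARS1 are highest in glucose-deprived KMT2D-KO libraries, PARS2 is lowest there at 5.15 to 6.73 CPM, and HARS1 and HARS2 are lower in KMT2D-KO than in KMT2D-WT libraries in both conditions.

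After 6 h without glucose the genotypes differed more. Of the 36 synthetases tested, 21 were higher in KMT2D-KO than in KMT2D-WT cells and 6 were lower, beside 25.9% of all 16782 genes higher and 24.9% lower. The classes parted: 15 of 20 cytosolic and dual-compartment enzymes rose and only HARS1 fell (median log2 fold change 0.36), whereas 6 of 16 mitochondrial enzymes rose and 5 fell (median -0.17, against 0.00 for all genes). The cytosolic enzymes that rose were TARS1, CARS1, KARS1, YARS1, GARS1, FARSA, LARS1, MARS1, IARS1, WARS1, EPRS1, SARS1, QARS1, FARSB and NARS1. The mitochondrial ones that rose were FARS2, YARS2, SARS2, EARS2, WARS2 and CARS2, and those that fell were PARS2, HARS2, AARS2, IARS2 and LARS2.

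TARS1 was again at the front, at 314, 389 and 390.2 CPM in KMT2D-WT and 632, 591, 807 and 833 CPM in KMT2D-KO libraries. The lowest KMT2D-KO library exceeded the highest KMT2D-WT library by a wide margin (log2 difference 1.01, SE 0.07, edgeR adjusted p = 7.8e-05). CARS1, for cysteine, lay at 131, 103 and 102 CPM against 174, 236, 189.7 and 189.7 CPM, also without overlap (0.77, SE 0.10, edgeR adjusted p = 0.000845). KARS1, which charges lysine in cytosol and mitochondria from alternatively spliced transcripts, was at 279, 269.7 and 269 CPM against 449, 415, 460.0 and 471 CPM, again with every KMT2D-KO library higher (0.71, SE 0.07, edgeR adjusted p = 0.00029). Of the counterparts, TARS2 was not called (-0.09), and CARS2 rose by 0.25 (SE 0.07, edgeR adjusted p = 0.0258).

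PARS2, the only proline enzyme of mitochondria, was the member with the largest fall. It lay at 19.4, 12.4 and 14.3 CPM in KMT2D-WT and 6.14, 6.73, 5.50 and 5.15 CPM in KMT2D-KO libraries, a low but well counted gene with 98 to 809 counts a library. The groups did not overlap, and the log2 difference was -1.45 (SE 0.11, edgeR adjusted p = 0.000126). Within experiment 1 it was -1.52 and within experiment 2 -1.25. The gene spans 54756898 to 54764523 of chromosome 1 and shares no exonic base with another gene. FARS2, for mitochondrial phenylalanine, went up, from 19.6, 14.7 and 15.7 CPM to 33.8, 32.5, 25.7 and 26.7 CPM, with no overlap (0.76, SE 0.08, edgeR adjusted p = 0.000452). The cytosolic phenylalanine enzyme is built from FARSA and FARSB, which rose by 0.49 and 0.25.

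HARS2 fell again, from 56.8, 45.6 and 45.0 CPM to 33.2, 33.0, 27.9 and 28.0 CPM, with no overlap (-0.75, SE 0.07, edgeR adjusted p = 0.0002). HARS1 went with it, at 202, 167 and 159 CPM against 154, 133, 129.8 and 126 CPM (-0.42, SE 0.08, edgeR adjusted p = 0.0056). HARS1 was the single cytosolic enzyme called lower in KMT2D-KO cells in either condition, except that QARS1 was also called lower with glucose under library-size scaling. Among the 13 pairs tested here and the 14 with glucose, histidine was the amino acid whose enzymes were both called lower.

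AARS1, the alanine enzyme, was among the members whose call turned on a single library. It was at 401, 331 and 336 CPM in KMT2D-WT libraries without glucose, and at 226, 586, 499.5 and 503 CPM in KMT2D-KO libraries, where the KO1 library of experiment 1 fell below every KMT2D-WT library and the other 3 lay above. The difference of 0.33 (SE 0.28, edgeR adjusted p = 0.362) was not called. Without that library it was 0.54 (edgeR adjusted p = 4.754e-12), in a fit that called 6136 of 16739 genes higher and 6312 lower. With glucose, too, AARS1 was at 192 CPM in both KO1 libraries and at 285 and 277 CPM in both KO2 libraries. This KO1 library is the only glucose-deprived KO1 library whose line label is not in doubt, so line and library cannot be told apart there.

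Comparing the enzymes amino acid by amino acid, the cytosolic log2 difference exceeded the mitochondrial one in 9 of 14 pairs with glucose and in 10 of 13 pairs without it, with a median gap of 0.14 and 0.50. Opposite calls occurred without glucose for isoleucine (IARS1 0.41, IARS2 -0.32) and leucine (LARS1 0.48, LARS2 -0.25). Both enzymes rose for cysteine, serine, tryptophan and tyrosine. The calls without glucose rested on the libraries of experiment 2: without both of its KMT2D-KO libraries 0 of 36 synthetases were called by edgeR (13 at an unadjusted p under 0.05), and with its close pairs summed 8 were. The former fit called 0 of all 16946 genes, and the latter 1517 higher and 1268 lower of 16867. Leaving out 1 library, IARS1 was called in 1 of 7 fits, LARS2, FARSB and QARS1 in 2, CARS2 and NARS1 in 3, WARS2 and SARS2 in 4, LARS1, FARSA and EPRS1 in 5, and IARS2 and AARS2 in 6, and the other called synthetases in all 7. The direction of all 27 called synthetases was the same in each experiment taken alone, but the calls came from a fit to these same libraries, so this is no independent check.

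**Figure D5:**
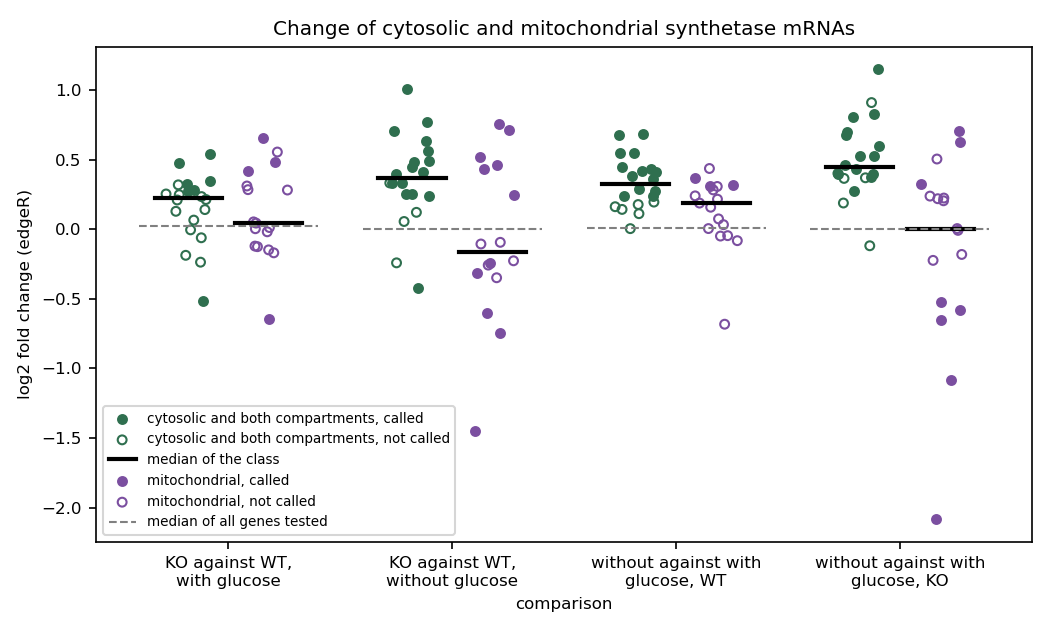
Log2 fold change of each synthetase in the 4 comparisons of 2 groups, with cytosolic and dual-compartment enzymes beside mitochondrial ones, called genes filled, a black line at each class median and a dashed line at the median of all genes tested. The class medians lie at 0.22 and 0.04 for KMT2D-KO against KMT2D-WT with glucose and at 0.36 and -0.17 without it.

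Many of the enzymes were higher without glucose in KMT2D-WT cells, which carry the control guide. In experiment 2, both mates of a pair were counted only in the libraries with glucose. Glucose and counting therefore cannot be told apart there, in either genotype. Of the 37 synthetases 17 were higher without glucose and 0 were lower by edgeR, also at an unadjusted p under 0.05 and by DESeq2, beside 7.15% of 17227 genes higher and 7.58% lower. The rise took in 14 of 20 cytosolic and dual-compartment enzymes (median 0.33) and 3 of 17 mitochondrial ones (median 0.19), against 0.01 for all genes. By the list from general knowledge, 12 of 13 ATF4-target synthetases rose (median 0.41) and 2 of the 7 other cytosolic or dual-compartment enzymes, FARSB among them. VARS1 was the ATF4-target synthetase not called, at 0.16.

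AARS1 went from 268, 201 and 205 CPM with glucose to 401, 331 and 336 CPM without it, with every glucose-deprived library higher (log2 difference 0.68, SE 0.05, edgeR adjusted p = 0.0151). CARS1 went from 105, 58.3 and 56.5 CPM to 131, 103 and 102 CPM, higher within each experiment although the experiments overlapped (0.68, SE 0.11, edgeR adjusted p = 0.0268). GARS1, the glycine enzyme of both compartments, went from 237, 237 and 232 CPM to 311, 361 and 358 CPM, all higher (0.55, SE 0.06, edgeR adjusted p = 0.0168). All 3 carry the TGATGNAA letters shown above. The mitochondrial counterparts AARS2 and CARS2 were not called, at 0.07 and 0.00.

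The 3 mitochondrial enzymes that rose in KMT2D-WT cells did so by less. HARS2 went up by 0.37 (SE 0.07, edgeR adjusted p = 0.03004) and HARS1 measured 0.14 without a call. RARS2, for mitochondrial arginine, measured 34.3, 40.4 and 44.5 CPM with and 42.6, 52.9 and 52.3 CPM without glucose, an overlap across experiments but not within them (0.32, SE 0.06, edgeR adjusted p = 0.0295). WARS2, for mitochondrial tryptophan, was at 23.5, 26.8 and 28.1 CPM and at 26.1, 34.9 and 36.2 CPM, likewise (0.31, SE 0.07, edgeR adjusted p = 0.0476), and cytosolic WARS1 rose with it by 0.36. The calls in this comparison rested on single libraries: with the close pairs summed, or without any 1 of the 4 libraries of experiment 2, 0 of 37 synthetases were called by edgeR, though 18 to 22 had an unadjusted p under 0.05. Without either library of experiment 1, 26 were called. Over all genes, the fits with 0 called synthetases called at most 1 gene. The fit without the experiment 1 library with glucose called 4740 of 18430 genes higher and 4004 lower. Without the glucose-deprived one it was 4749 and 3998 of 18377.

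In KMT2D-KO cells the loss of glucose split the classes further. Of the 37 synthetases 17 rose and 5 fell, beside 14% of 16057 genes higher and 16.0% lower. The rises were 14 of 20 cytosolic and dual-compartment enzymes (median 0.45) and WARS2, FARS2 and YARS2. All 5 that fell were mitochondrial, VARS2, PARS2, LARS2, AARS2 and MARS2, and the median of that class was 0.00. Of 13 ATF4-target synthetases 10 rose (median 0.60), and AARS1, LARS1 and MARS1 were just short of the threshold with 0.91, 0.40 and 0.37 (edgeR adjusted p = 0.0505, 0.0531 and 0.0631).

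CARS1 had the largest rise, from 102, 111, 77.7 and 66.4 CPM with glucose to 174, 236, 189.7 and 189.7 CPM without it (log2 difference 1.15, SE 0.14, edgeR adjusted p = 0.0025). GARS1 went from 291, 214, 370.1 and 227 CPM to 414, 472, 551 and 562 CPM (0.83, SE 0.17, edgeR adjusted p = 0.0125). YARS1 went from 259, 283, 245 and 226 CPM to 394, 526, 437 and 439.8 CPM (0.81, SE 0.11, edgeR adjusted p = 0.0033). In all 3 genes each glucose-deprived library was above each library with glucose, and GARS1 was in addition higher in KO1 than in KO2 with glucose present. YARS2 also rose, by 0.32 (SE 0.09, edgeR adjusted p = 0.029).

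PARS2 went down, from 15.6, 12.3, 11.9 and 9.57 CPM with glucose to 6.14, 6.73, 5.50 and 5.15 CPM without it, every glucose-deprived library lower (-1.09, SE 0.16, edgeR adjusted p = 0.0040). WARS2 went up, from 25.3, 22.7, 29.7 and 24.2 CPM to 41.1, 33.4, 46.0 and 48.9 CPM, again without overlap (0.70, SE 0.13, edgeR adjusted p = 0.0078). VARS2 was called lower on 15, 11, 53 and 33 counts with glucose and 5, 3, 3 and 2 counts without, too few to size the change, and the call held in 5 of the 8 fits that left out 1 library. So did that of AARS2, while NARS1 held in 4, YARS2, MARS2, FARSB and VARS1 in 3, IARS1 in 2 and FARSA in 1. Across all synthetases 13 to 28 were called with 1 library left out, 11 without the experiment term, and 0 by edgeR without both glucose-deprived KMT2D-KO libraries of experiment 2 (15 at an unadjusted p under 0.05). Over all genes, fits with 1 library left out called 848 to 3173 higher and 1139 to 3380 lower. Without the experiment term it was 363 and 1102 of 16057, and without those 2 libraries 33 and 50 of 17292.

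Whether the effect of KMT2D-KO differed between the glucose conditions was tested directly, in 1 fit to all 14 libraries. For 4 of 37 synthetases the KMT2D-KO difference was higher without glucose than with it and for 2 it was lower, beside 4.73% and 6.54% of 18678 genes. All 4 upward calls were cytosolic or dual-compartment enzymes, TARS1, CARS1, KARS1 and QARS1, and both downward calls were mitochondrial, PARS2 and LARS2. The class medians were 0.22 and -0.08, against 0.00 for all genes. The cytosolic value was above the mitochondrial one in 12 of 14 amino acid pairs, with a median gap of 0.34.

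PARS2 had the smallest adjusted p of the set: its KMT2D-KO difference was -0.15 with glucose and -1.45 without, and the test of the difference gave -1.28 (SE 0.19, edgeR adjusted p = 0.00197). It was called with any 1 of the 14 libraries left out. QARS1, which charges glutamine, was at 210.1, 153 and 157 CPM in KMT2D-WT and 162, 174, 139 and 149 CPM in KMT2D-KO libraries with glucose. Without glucose it was at 205, 175 and 174 CPM and 254, 233, 212 and 215 CPM. The KMT2D-KO libraries were thus the higher ones, without overlap, only after glucose was withdrawn (0.47, SE 0.11, edgeR adjusted p = 0.0162), and the call held in 10 of 14 fits with 1 library left out. TARS1 gave 0.49 (SE 0.12, edgeR adjusted p = 0.0227) and held in 6 of 14. Mitochondria have no separate glutamine synthetase, and QRSL1, GATB and GATC, which amidate mitochondrial glutamyl-tRNA instead, were not called in any comparison where they were tested.

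LARS2 was called in this test and its cytosolic counterpart was not. It lay at 41.6, 40.8 and 41.4 CPM in KMT2D-WT and 34.7, 34.0, 36.8 and 35.2 CPM in KMT2D-KO libraries without glucose, where the KMT2D-KO libraries were lower, after having been the higher group on average with glucose. The difference between conditions was -0.50 (SE 0.13, edgeR adjusted p = 0.0278), against 0.03 for LARS1. AARS2, chosen after its values were seen, was near the threshold on the same side at -0.62 (edgeR adjusted p = 0.0551), and FARS2 and WARS2 near it on the other, at 0.50 and 0.46. Without both glucose-deprived KMT2D-KO libraries of experiment 2, 0 of 37 synthetases were called by edgeR (10 at an unadjusted p under 0.05). That fit called 24 of 19189 genes higher and 34 lower.

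Scaling moved the balance of calls. Scaled by library size in place of TMM (the trimmed mean of M-values, which sets the scale from genes that differ little), the median of all genes shifted to -0.25 for KMT2D-KO against KMT2D-WT without glucose, -0.20 for glucose in KMT2D-KO and -0.23 for the difference between conditions. The calls lower and higher were then 9 and 7 for KMT2D-KO against KMT2D-WT without glucose, where TMM gave 6 and 21. They were 4 and 6 with glucose, 7 and 11 for glucose in KMT2D-KO, and 5 and 0 for the difference between conditions. Over all genes, the fit without glucose called 6295 lower and 2726 higher of 16782, and that with glucose 2794 and 2323 of 20423. For glucose in KMT2D-KO it was 3893 and 1005 of 16057, and for the difference between conditions 2402 and 264 of 18678. The class medians without glucose were then 0.11 and -0.42, which relative to the shifted median of all genes left the cytosolic enzymes above it and the mitochondrial ones below it.

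Genes around the synthetases were taken from lists of the charging pathway and the stress response. Of the 12 integrated stress response genes 8 rose in KMT2D-KO cells with glucose (median 0.54), 9 without it (0.85), 8 on glucose removal in KMT2D-WT (0.63) and 9 in KMT2D-KO cells (1.10). TRIB3, a pseudokinase induced by ATF4, changed by 1.12, 1.86, 1.21 and 1.93 in that order. SESN2, a leucine-binding regulator of mTORC1, changed by 0.41, 1.15, 1.12 and 1.85, and SLC3A2, the heavy chain of amino acid transporters, by 0.66 and 1.24 for the genotype comparisons. The test of the difference between conditions called SESN2 and SLC3A2, at 0.77 and 0.61. DDIT3, MTHFD2 and TRIB3 had larger values that it did not call, at 1.33, 0.85 and 0.78. ATF4 transcript itself was higher in KMT2D-KO cells, by 0.49 with and 0.81 without glucose.

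Of the 8 enzymes of the multisynthetase complex 3 rose in KMT2D-KO cells with glucose, 6 without it, 5 on glucose removal in KMT2D-WT and 4 in KMT2D-KO cells, and of its 3 scaffold genes AIMP1, AIMP2 and EEF1E1, 2, 2, 1 and 0 rose by edgeR's test. Of 7 other charging and editing genes, listed as cytosolic without a test of where each product acts, 3 rose in KMT2D-KO cells with glucose. Without it 3 rose and 2 fell. AARSD1, an alanyl-tRNA editing protein, rose by 1.21 and 1.69 at a low level, DTD1, which removes D-amino acids from tRNA, by 0.73 and 1.16, PTRH2 by 0.40 with glucose and PSTK by 0.53 without it. DTD2 and SEPSECS, which acts in selenocysteine synthesis on tRNA, fell without glucose, at -0.61 and -0.63. On glucose removal 0 of the 7 were called in KMT2D-WT by edgeR (TARS3, DTD1, DTD2 and PTRH2 had an unadjusted p under 0.05, and DESeq2 called 3), and DTD1 and PSTK rose in KMT2D-KO cells. Only DTD1 was called for the difference between conditions (0.46). Of the genes listed as mitochondrial charging genes only MTFMT, which formylates the initiator methionyl-tRNA, was called. It fell by 0.48 on glucose removal in KMT2D-KO cells. With the TGATGNAA letters, 1, 6, 7 and 5 of 7 cytosolic or dual-compartment synthetases rose in the 4 comparisons (KMT2D-KO with glucose, without it, and glucose removal in KMT2D-WT and in KMT2D-KO), with medians of 0.23, 0.45, 0.42 and 0.68. Without the letters it was 3, 7, 4 and 7 of 9, with medians of 0.14, 0.33, 0.19 and 0.46.

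The lines and the experiments were also read apart. Within experiment 1 the cytosolic and mitochondrial medians of KMT2D-KO against KMT2D-WT were 0.09 and 0.05 with glucose and 0.24 and -0.17 without it, and within experiment 2 they were 0.27 and 0.02, and 0.51 and -0.16. For glucose removal they were 0.27 and 0.13 in KMT2D-WT and 0.42 and 0.12 in KMT2D-KO cells in experiment 1, and 0.33 and 0.18, and 0.58 and 0.11, in experiment 2. The cytosolic median was above the mitochondrial one in all 8. Between the lines with glucose, RARS2 was at 41.8 and 44.6 CPM in KO1 and 23.8 and 30.7 CPM in KO2, and GARS1 at 291 and 370.1 CPM against 214 and 227 CPM, whereas AARS1 was lower in KO1, with a log2 ratio of KO1 to KO2 of -0.55. With 2 libraries a line, no test was made of these differences.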

How the data were processed

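The study sequenced polyadenylated RNA of 14 SCC23 libraries. The authors aligned reads with HISAT2 and deposited raw counts per gene from featureCounts 2.0.3, on an Ensembl 102 annotation of GRCh38 per the file headers. In 4 libraries (experiment 2 with glucose) both mates of a pair were counted, seen as 67.4% to 70.6% even values among counts of 1 to 10 against 37.4% to 42.7% elsewhere. Within experiment 2, glucose and this way of counting therefore cannot be told apart. With these counts halved, 1282 of 17057 genes were called higher and 1332 lower for glucose in KMT2D-WT. For glucose in KMT2D-KO it was 2263 and 2561 of 16066. No other column was used. Total counts were 15669154 to 62968057, and 39032 gene names had a count.

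Groups came from the sample labels. Counts were tested with edgeR 4.0.16 (R 4.3.3): genes kept by filterByExpr with a minimum count of 10, TMM factors, glmQLFit and glmQLFTest with experiment as a covariate (within each glucose condition for the test over all libraries), and Benjamini-Hochberg adjustment over all genes tested at 0.05. Standard errors are the log2 fold change over the square root of F. The study's methods name DESeq2 without a covariate, which was an alternative (DESeq2 1.42.0). CPM and RPKM were computed with TMM over all 14 libraries, RPKM with the exonic length in the count files. The code was tested on simulated counts with known fold changes.

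The experiment number pairs libraries: deviations from group means correlated at 0.95 and 0.88 for the genotype comparisons and 0.43 and 0.36 for the glucose comparisons over 13292 genes. The glucose-deprived pairs of experiment 2 differed by more than counting noise and were kept as separate libraries, with their sums as an alternative. Other alternatives were another scaling, no filter, no experiment term, experiment 1 alone, halved counts in the both-mate libraries, and each library left out.

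Members and gene lists were chosen with earlier results of these data known. Described library by library were the 3 cytosolic and 3 mitochondrial members with the largest absolute log2 fold change among those called in each comparison, the 3 with the smallest adjusted p in the test over all libraries, and their counterparts for the same amino acid. Some members enter the counts and medians but are not reported singly here, and other named genes were chosen after their values were seen. Sequences are from RefSeq. LARS1, VARS1, VARS2, AARS2 and YARS1 are among the members with no entry.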

Additional observations from a re-analysis of the deposited data

Results flagged for a closer look

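For 6 synthetases the test of the difference itself found that the KMT2D-KO effect was not the same with and without glucose. The log2 difference of the effects was -1.28 for PARS2 (edgeR adjusted p = 0.00197), -0.50 for LARS2 (edgeR adjusted p = 0.0278), 0.47 for QARS1 (edgeR adjusted p = 0.0162), 0.49 for TARS1 (edgeR adjusted p = 0.0227), 0.59 for CARS1 (edgeR adjusted p = 0.0351) and 0.41 for KARS1 (edgeR adjusted p = 0.0411). The call of PARS2 held in 14 of 14 fits that left out 1 library, that of QARS1 in 10, those of TARS1 and LARS2 in 6, that of KARS1 in 5 and that of CARS1 in 4.

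In 1 of 70 sets of 4 libraries (a synthetase in a KMT2D-KO group, for the 35 described singly), 1 library stood apart from the other 3, where chance gives about 1 in 20. It was the glucose-deprived KO2 library of experiment 1, the lowest of its group. NARS2, for mitochondrial asparagine, was at 29.4 CPM there against 39.5, 40.4 and 39.1 CPM in the others, a gap of 0.887 of the whole range. With glucose NARS2 was higher in KO2 (42.3 and 41.0 CPM) than in KO1 (30.8 and 32.7 CPM).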

How the results depend on the processing

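For the 27 pairs of a synthetase and a comparison picked by the rule above, the direction was kept under all alternatives. The alternatives reuse the libraries from which the pairs were picked, so they are no independent check. Of the outcomes of these pairs 338 were counted as kept and 118 as calls lost. Those counted as kept include untested values, of glucose in KMT2D-WT in experiment 1 alone, where only the direction was compared. The counts of called synthetases depended on the treatment of experiment. Values are for KMT2D-KO against KMT2D-WT with glucose and without it, for glucose removal in KMT2D-WT and in KMT2D-KO, and for the difference between conditions, which gave 11, 27, 17, 22 and 6 calls. Without the replicate block (experiment, which pairs libraries) they were 0, 9, 0, 11 and 0 by edgeR, with 7, 6 and 5 at an unadjusted p under 0.05 where 0 were called. Calls over all genes also fell. Without the block edgeR called 495, 1706, 0, 363 and 20 genes higher, and 476, 1953, 2, 1102 and 50 lower. DESeq2 without the block gave 3, 12, 3 and 1 for all but glucose in KMT2D-KO, and DESeq2 with it gave 10 for the difference between conditions. Over all genes the former called 1386, 2547, 454 and 188 higher and 1191, 2274, 576 and 403 lower. The latter called 1805 higher and 1668 lower of 18678. Experiment 1 alone has 1 KMT2D-WT library in each condition, so its calls are given only for glucose in KMT2D-KO, with 2 libraries a group. There edgeR called 0 synthetases (13 unadjusted) and 0 of 15946 genes, with too few libraries to estimate the spread well. For glucose in KMT2D-WT it has 1 library a group and no test. Summing the close pairs gave 8, 0, 13 and 1 for the comparisons that hold them. Over all genes it gave 1517, 0, 1101 and 66 higher and 1268, 1, 1181 and 192 lower. Library-size scaling gave 16 for KMT2D-KO against KMT2D-WT without glucose. Without both glucose-deprived KMT2D-KO libraries of experiment 2, an alternative chosen after seeing the data, as was library-size scaling, the counts were 0 of the 27, 22 and 6. The cause of these shifts was not tested.

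Leaving out 1 library gave 4 to 12, 17 to 32, 0 to 26, 13 to 28 and 1 to 13 calls. Over all genes the same fits called 1134 to 2613, 3105 to 6136, 0 to 4749, 848 to 3173 and 302 to 2137 higher. They called 1008 to 2435, 2926 to 6312, 0 to 4004, 1139 to 3380 and 470 to 2093 lower. With glucose, 4 and 5 remained without KMT2D-WT replicates 1 and 3, and 7 without KMT2D-WT replicate 2 or either KO2 library. Without glucose, 17, 17 and 18 were called without KMT2D-WT replicates 1, 2 and 3. In KMT2D-KO, 13 were called without either glucose-deprived library of experiment 2 and 14 without KO2 of experiment 2 with glucose. For the difference between conditions, 13 were called without the glucose-deprived KO1 library of experiment 1, and 1 or 2 without any KMT2D-WT library or either glucose-deprived KMT2D-KO library of experiment 2. The fit with 13 called 2137 of 18767 genes higher and 2093 lower.

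The gap between the cytosolic and mitochondrial medians, 0.18, 0.53, 0.14, 0.44 and 0.30, ran with 1 library left out from 0.12 to 0.25, 0.48 to 0.59, 0.12 to 0.20, 0.33 to 0.55 and 0.24 to 0.49. For glucose in KMT2D-KO it was 0.30 in experiment 1 alone and 0.30 without both of those libraries. VARS2 is limited by its 2 to 53 counts a library, and 63.0% of its exonic bases are shared with an overlapping gene. The reason for its low count was not tested. Intervals of the other synthetases are set by the spread between libraries.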
